A study of Mus musculus with 16 samples.

Results

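The 10 genes described here encode structural proteins, crosslinking enzymes and adhesion or secreted products of the cornified envelope, and they were chosen by symbol: Sprr1a, Sprr1b, Sprr3, Ivl, Cnfn, Tgm1, Tgm3, Cdsn, Sbsn and Krtdap. All 10 were found among the 49315 genes of the deposited count table, and 6 of them (Sprr1a, Sprr3, Ivl, Tgm1, Cdsn and Sbsn) passed edgeR's filter on low counts together with 15993 genes in all. RNA was sequenced from 16 primary murine tracheal epithelial cell cultures (MTECs), 2 in each of 8 groups. Male and female mice, wild type (WT) or labelled knockout (KO) for LMAN1, supplied the cells, and the methods describe the line as kept on a C57BL/6J background with WT littermates. LMAN1 is a receptor that carries cargo proteins from the endoplasmic reticulum towards the Golgi. Cultures were either naive, meaning untreated, or exposed overnight to house dust mite extract (HDM) at 20 µg/ml. The legend of the sequencing data states that tracheas were pooled, that the inserts carried a matrix laid down by 3T3 cells, a fibroblast line, and that cells differentiated with air above them, so that all groups shared this matrix and each library was 1 culture from pooled animals. The ages of the donor mice were not used here. The labels call the 2 cultures of a group biological replicates but do not say whether they came from separate pools. The p-values therefore measure only the spread between these samples, which may be technical.

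A cornified envelope forms when a flattening squamous cell lays down precursor proteins under its plasma membrane and transglutaminases crosslink them into a rigid shell, to which lipids and specialised junctions are attached. The process is best known from skin and other stratified epithelia. The airway lining is normally a pseudostratified layer of basal, secretory and ciliated cells, and cornification genes are known as features of squamous metaplasia and of small squamous patches within it. In a bulk culture, fewer cells of a type and less RNA per cell cannot be told apart, and this holds for every level given here.

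Counts on genes summed to between 21860698 and 43442188 per library. The 8 airway epithelium markers, among them Epcam, Krt8, Krt18 and Nkx2-1, summed to 6842 to 10730 CPM in the 16 libraries. CPM are read counts per fixed library total, scaled with the TMM factors of edgeR. Epithelial RNA was thus present in each library, while the sum does not show that it came from trachea. The targeted gene Lman1 averaged 121 ± 14.3 CPM (SD, n = 8) in WT libraries. Among libraries labelled KO it stood at 12.8 and 12.8 CPM in naive females, at 14.2 and 63.4 in naive males, at 66.6 and 78.1 in HDM females and at 65.0 and 66.03 in HDM males. The libraries labelled KO thus kept 10.6% to 64.8% of the WT mean, and differences between genotypes below compare the labels. Lman1 was itself 5.66-fold higher in HDM than in naive female cultures labelled KO (adjusted p = 0.00744 by edgeR). HDM treatment and Lman1 level can therefore not be told apart in those females. The 2 naive male libraries labelled KO also differed from each other in Lman1.

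Among the precursor proteins, Sprr1a (ENSMUSG00000050359, chromosome 3 of GRCm38 from 92483952 to 92485895, minus strand), whose small proline-rich product bridges other envelope proteins, was by far the most abundant. Divided by exon length, its mean level over the 16 libraries was 213 CPM per kb. Sprr3, a relative that is typical of oesophageal epithelium, followed at 6.09 CPM per kb (chromosome 3, 92456502 to 92458720, minus strand), and Ivl, encoding the early scaffold protein involucrin, at 3.68 CPM per kb (chromosome 3, 92570902 to 92573735, minus strand). The membrane-bound crosslinking enzyme Tgm1 lay between them at 4.497 CPM per kb (chromosome 14, 55700009 to 55713926, minus strand). Cdsn, the adhesion protein corneodesmosin of cornified junctions, reached 1.55 CPM per kb (chromosome 17, 35552128 to 35557180, plus strand), and Sbsn, the secreted protein suprabasin of upper squamous layers, reached 0.876 CPM per kb (chromosome 7, 30751471 to 30756134, plus strand). Sprr1a accounted for 92.6% of the summed level per kb of the 10 genes. All are annotated as protein coding. Tgm1 overlaps Gm49067 on the opposite strand and Sbsn overlaps Tmem147os on its own strand in GENCODE M21, and as the strand setting of the counting is not given in the sources used here, reads of these pairs could have been assigned to either gene or to neither.

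The remaining 4 genes were close to silent. The highest raw count in any library was 12 for Sprr1b, 11 for Cnfn, 7 for Krtdap and 2 for Tgm3. Taking 3 counts in a library as the limit that a count of 0 allows, which corresponded to 0.0674 to 0.142 CPM depending on depth, Sprr1b exceeded the limit in 6 of 16 libraries, Cnfn in 5, Krtdap in 4 and Tgm3 in 0. This limit covers counting error only. Cnfn (cornifelin, an envelope component) gave 11 and 8 counts in female HDM cultures labelled KO and 0 and 0 in the male HDM cultures labelled KO. Krtdap, a secreted product of differentiating keratinocytes, gave 0 and 0 counts in female WT HDM cultures and 7 and 5 in naive female cultures labelled KO. Sprr1b, a near relative of Sprr1a, gave 4 and 12 counts in naive female WT cultures and 0 and 0 in HDM-treated male cultures labelled KO. Tgm3, the transglutaminase of the upper epidermis and hair follicle, summed to 6 counts over the 16 libraries. These 4 genes did not pass the filter in the fit over all 16 libraries, so no test of that fit covers them. With no filter, and in each fit that left out 1 library of a group other than the HDM cultures labelled KO, Cnfn entered the test and was called lower in males than in females among HDM cultures labelled KO, on the 4 counts just given.

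**Figure D1:**
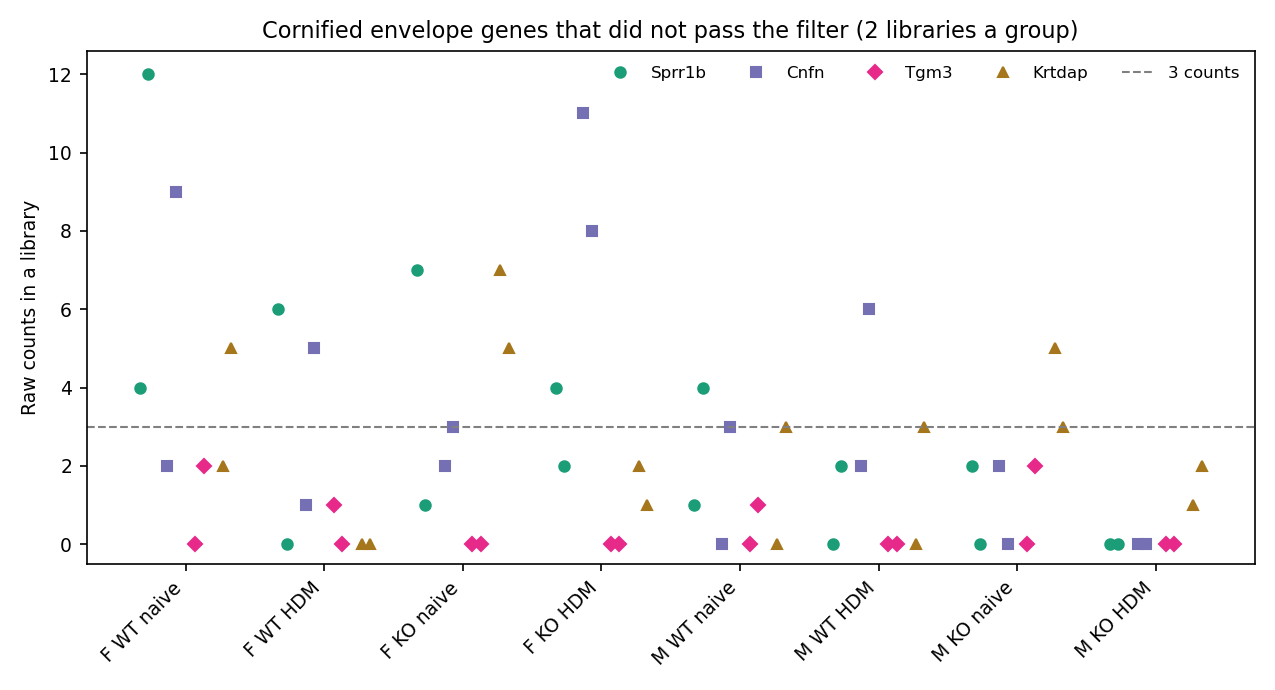
Raw counts of the 4 genes that did not pass the filter, 1 point for each of the 2 libraries in a group; the vertical axis gives counts and the dashed line marks 3 counts. Tgm3 stays under the line throughout, and the highest point is Sprr1b at 12 counts in a naive female WT library.

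Sprr1a, Ivl, Sbsn and Tgm1 were called lower in males than in females in HDM cultures labelled KO, as described further on. In WT HDM cultures only Sbsn of them was. The stretches of DNA upstream of these 4 genes are given here with that of Krtdap, a near-silent gene close to Sbsn on chromosome 7. Each holds the 156 bases that end at the RefSeq start site of the gene in GRCm38.p6, read 5′ to 3′ on the coding strand. Capitals mark TATAAA, the TATA box, on either strand. They likewise mark the AP-1 motif, spelled TGAGTCA, with its reverse complement.
Sprr1a, chr3:92485881-92486036, minus strand: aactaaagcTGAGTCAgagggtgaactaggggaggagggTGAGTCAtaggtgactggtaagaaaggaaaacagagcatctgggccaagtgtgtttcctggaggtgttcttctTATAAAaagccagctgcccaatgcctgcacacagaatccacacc
Ivl, chr3:92573735-92573890, minus strand: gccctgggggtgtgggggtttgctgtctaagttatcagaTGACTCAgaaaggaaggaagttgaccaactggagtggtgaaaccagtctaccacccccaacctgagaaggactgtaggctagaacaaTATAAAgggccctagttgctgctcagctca
Sbsn, chr7:30751316-30751471, plus strand: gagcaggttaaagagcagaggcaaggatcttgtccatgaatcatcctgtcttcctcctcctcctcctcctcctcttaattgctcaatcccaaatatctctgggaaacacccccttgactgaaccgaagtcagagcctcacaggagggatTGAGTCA
Tgm1, chr14:55713492-55713647, minus strand: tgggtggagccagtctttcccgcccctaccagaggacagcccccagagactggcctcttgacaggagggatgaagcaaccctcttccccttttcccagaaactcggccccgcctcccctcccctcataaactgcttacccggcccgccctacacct
Krtdap, chr7:30787750-30787905, plus strand: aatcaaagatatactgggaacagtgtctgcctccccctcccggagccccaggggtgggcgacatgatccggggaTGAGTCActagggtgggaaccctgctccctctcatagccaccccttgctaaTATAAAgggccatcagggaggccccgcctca

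Within windows of 250 bases before to 50 bases after the start, AP-1 letters were present in 4 of the 10 genes (Sprr1a with 2 matches, Ivl, Sbsn and Krtdap) against 5.20% of all 32851 mouse windows in the table. TATAAA was found in 6 of 10, against 13.6% of all windows. The matches of Sprr1a, Sprr1b, Sprr3, Ivl, Tgm3 and Krtdap began 28 to 43 bases before the start. The letters GGGNGTGG, bound by KLF factors, occurred in 2 of 10 (Ivl, with 2 matches, and Cnfn) against 17.6%, and AACNGGTT, the GRHL motif, in 0 of 10 against 2.09%; no 2 of these motifs overlapped in the windows of the 10 genes. A match describes letters and is not a binding site. Tgm1 and Cdsn held none of the 4 motifs, and of the 2 RefSeq windows listed for each of these genes the one nearest to the GENCODE start was used, which for Tgm1 lay 434 bases away from it. Motif letters did not separate the detected from the near-silent genes, since Krtdap held both an AP-1 and a TATA match while Tgm1 held neither.

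**Figure D2:**
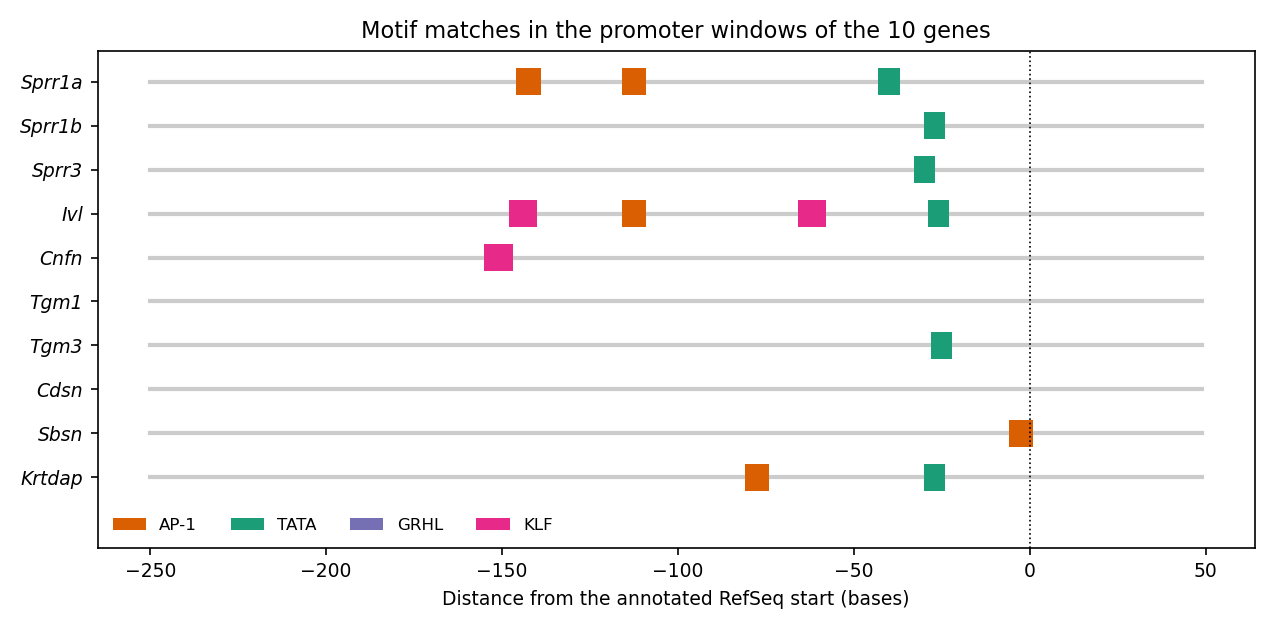
Positions of motif matches in the promoter window of each of the 10 genes; the horizontal axis is the distance in bases from the annotated RefSeq start, grey lines are the windows searched and coloured blocks are matches on either strand. TATA blocks of 6 genes lie 28 to 43 bases before the start, and no GRHL block is drawn because none was found.

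The response to HDM was examined first, within each sex and genotype. In female WT MTECs Sbsn and Ivl rose, and no other tested gene of the 10 passed the threshold of an adjusted p under 0.05 (quasi-likelihood test of edgeR, adjusted by Benjamini-Hochberg over all 15993 genes). This is 2 of 6 called, in a comparison in which 43.1% of all genes were called and 20.6% were called higher, so a count of this size over 6 genes is close to that among genes at large. Sbsn stood at 1.53 and 2.70 CPM in naive and at 5.62 and 7.96 CPM in HDM cultures. Both treated cultures lay above both naive ones, with a log2 fold change of 1.66 (SE 0.36, adjusted p = 0.00343 by edgeR). Ivl stood at 2.51 and 7.37 CPM in naive and at 15.7 and 12.7 CPM in HDM cultures. The naive pair was wide apart, yet both lay below the treated pair (2.835-fold higher, 95% interval of the log2 fold change 0.37 to 2.63, adjusted p = 0.0343 by edgeR). With 1 library left out Ivl was no longer called without either HDM replicate (log2 fold changes of 1.34 and 1.64) or without naive replicate 1 (0.94), nor in a fit of the 4 libraries compared alone (1.51), whereas Sbsn was called in each of these fits.

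The abundant precursor Sprr1a gave 201 and 192 CPM in naive and 154 and 234 CPM in HDM female WT cultures. The treated pair enclosed the naive one, and the log2 fold change of -0.02 had a 95% interval from -0.56 to 0.52. Sprr3 went from 9.23 and 9.22 CPM to 6.41 and 4.404 CPM, a log2 fold change of -0.77 (SE 0.39) that missed the threshold (adjusted p = 0.134 by edgeR) although the pairs did not overlap. Sprr3 passed it in a fit of the 4 libraries compared (-0.76) and with no filter on low counts (-0.79). Tgm1 (0.37, interval -0.77 to 1.51) and Cdsn (0.22, interval -0.68 to 1.12) differed by less than their error on the log2 scale. Among the precursors of female WT cultures, Ivl was thus called higher under HDM, while the interval of Sprr1a spanned 0.

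Markers of other cells moved in the same female WT comparison. The 10 secretory cell markers summed to 22450 to 29410 CPM in naive and to 4277 to 5259 CPM in HDM cultures, with 10 of 10 called lower. The 10 basal cell markers went from 11020 to 12060 CPM to 2570 to 4905 CPM, with 6 called lower. The 10 fibroblast markers spanned 48.0 to 643 CPM in naive and 118 to 814 CPM in HDM cultures, with 3 called higher, and the summed ranges overlapped. The 7 hillock-type markers summed to 8295 to 8482 CPM in naive and 12150 to 13700 CPM in HDM cultures, with 2 called higher and 3 lower. In this list mean Ecm1 rose from 1703 to 5075 CPM, while Krt13 fell from 56.3 to 7.98 and Krt4 from 748 to 106 CPM. The sum therefore does not describe its keratins. The 8 endothelial and muscle markers summed to 61.9 to 147 CPM in naive and 286 to 465 CPM in HDM cultures, without overlap, and of the 5 tested edgeR called 0. All 8 airway epithelium markers were called, 5 higher and 3 lower. Of the ciliated markers, 4 of 9 were called lower and Sntn was at 0 in the HDM pair, while of 8 immune markers 5 were called lower and Cd3e was at 0. The part of these shifts in the rise of Sbsn and Ivl was not tested.

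In female cultures labelled KO, 0 of the 6 genes were called under HDM by edgeR, where 10.4% of all genes were; 0 of the 6 had an unadjusted p under 0.05, and DESeq2 called 0. Sbsn stood at 2.54 and 4.62 CPM in naive and 5.85 and 4.87 CPM in HDM cultures. The pairs did not overlap, and the log2 fold change was 0.58 (95% interval -0.19 to 1.36). Ivl went from 5.27 and 8.15 CPM to 13.3 and 8.13 CPM, overlapping, with a log2 fold change of 0.67 (interval -0.44 to 1.79). Sprr1a was lower in both treated cultures (184 and 145 against 217 and 225 CPM), as was Sprr3 (7.71 and 5.51 against 9.49 and 10.8 CPM). Their log2 fold changes were -0.43 (adjusted p = 0.311 by edgeR) and -0.62 (adjusted p = 0.344 by edgeR), and these 2 genes passed in a fit of the 4 libraries compared. Secretory markers fell in this comparison too, with 7 of 10 called lower, whereas 1 of 10 basal markers was called lower and 0 fibroblast markers were called.

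In males no response was called. In WT males edgeR called 0 of the 6 genes and 0.0% of all genes, with 0 members at an unadjusted p under 0.05, 665 genes at that level in all, and with 0 members and 2 genes in all called by DESeq2. For Tgm1 the 2 replicates stood further apart than the treatments, at 16.5 and 7.81 CPM in naive and 27.5 and 8.87 CPM in HDM cultures. Replicate 1 was the higher in both conditions for Tgm1, and likewise for Ivl (6.73 and 3.74 naive, 9.45 and 4.88 HDM), for Cdsn and for Sprr3. Sbsn went otherwise, at 1.69 and 1.985 CPM in naive and 2.46 and 2.38 CPM in HDM cultures of WT males. These pairs did not overlap, and the log2 fold change was 0.40 (SE 0.37, adjusted p = 0.936 by edgeR). In males labelled KO edgeR again called 0 of 6 and 0.0% of all genes, with 3 members and 857 genes at an unadjusted p under 0.05 and 0 members and 1 gene by DESeq2, and all 6 log2 fold changes were negative. The value was -1.05 for Sprr3 (SE 0.39, 11.7 and 5.35 CPM naive, 3.67 and 4.54 HDM). For Sbsn it was -0.99 (SE 0.39, 2.79 and 1.61 CPM naive, 0.927 and 1.27 HDM), and for Sprr1a -0.59 (SE 0.25, 174 and 122 CPM naive, 105.5 and 91.5 HDM). Treated and naive pairs did not overlap for these 3 genes or for Tgm1, and the adjusted p of each was 0.782 by edgeR. Tgm1 changed by -0.97, Ivl by -0.60 and Cdsn by -0.32 on the log2 scale. Without naive replicate 1 of these males, Sprr3 changed by -0.38, Tgm1 by -0.24 and Ivl by -0.04, and without naive replicate 2 by -1.51, -1.46 and -1.02. The median over the 6 genes was -0.79 with all libraries, beside -0.02 over all genes tested.

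**Figure D3:**
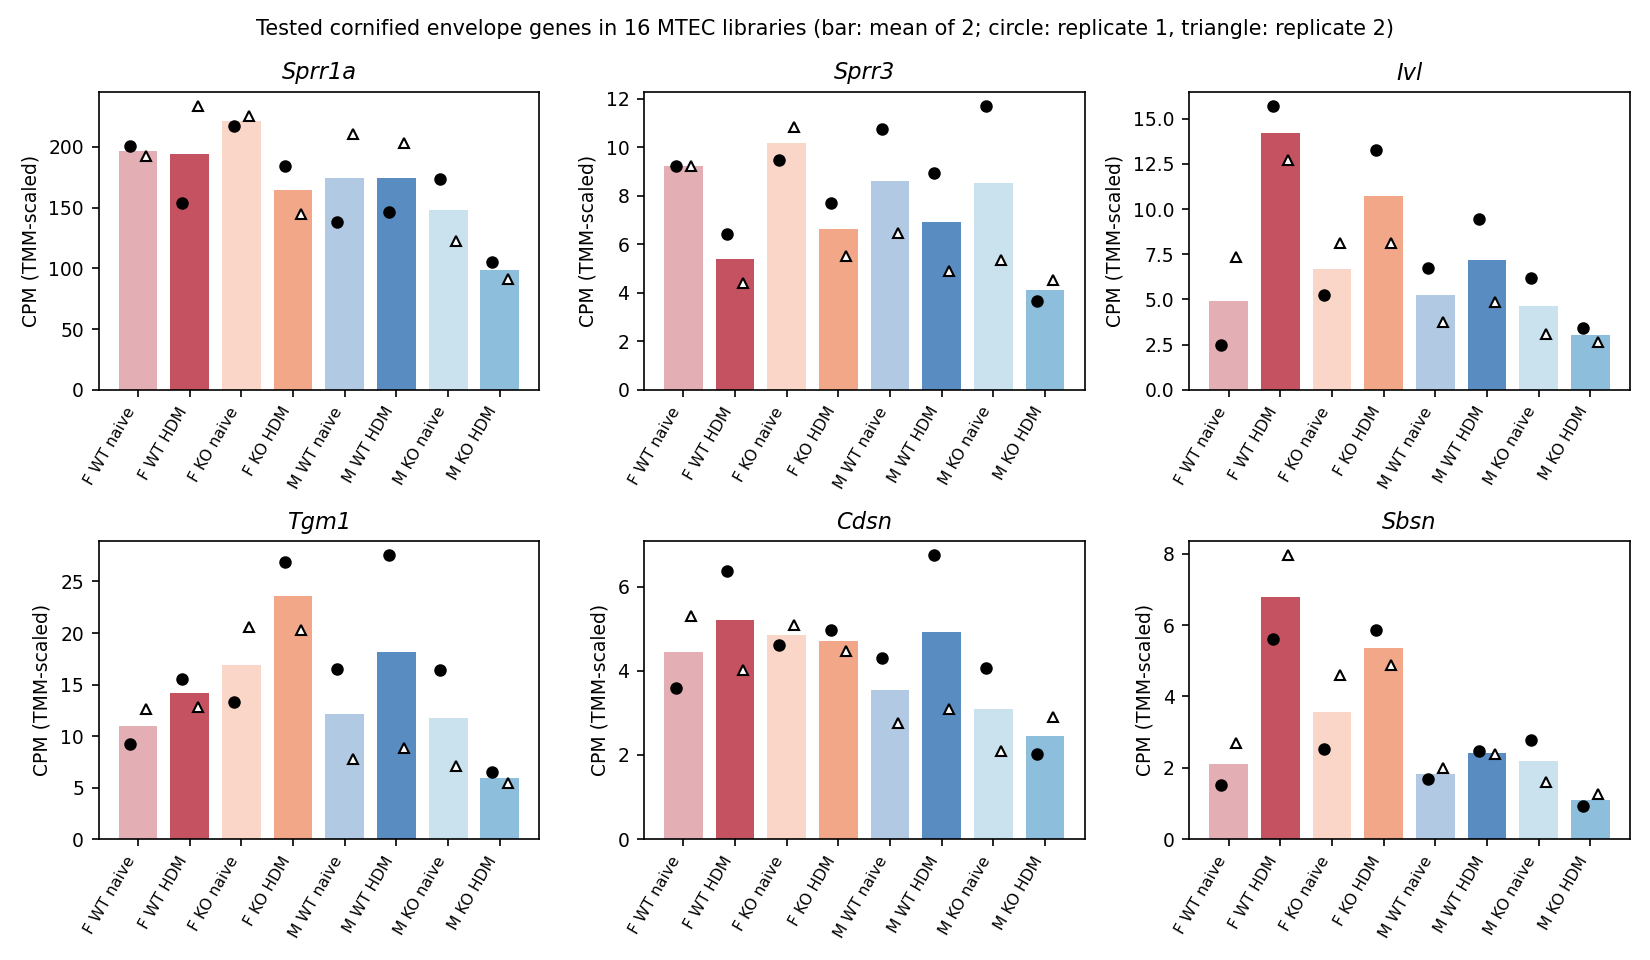
Level of the 6 tested genes in TMM-scaled CPM (vertical axes, each starting at 0) in the 8 groups; bars are means of 2 cultures, circles replicate 1 and triangles replicate 2. Sbsn and Ivl are highest in female HDM cultures, and the HDM-treated males labelled KO have the lowest group mean for each of the 6 genes.

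Whether the HDM response differed between sexes or genotypes was tested directly as a difference of log2 fold changes. In WT cultures the Sbsn response was larger in females than in males by 1.27 (SE 0.52, adjusted p = 0.0976 by edgeR) and the Ivl response by 1.05 (SE 0.72, adjusted p = 0.322 by edgeR). In cultures labelled KO the corresponding values were 1.57 for Sbsn (SE 0.53, adjusted p = 0.130), 1.45 for Tgm1 (SE 0.74, adjusted p = 0.325) and 1.28 for Ivl (SE 0.74, adjusted p = 0.391), all by edgeR. None of the 6 was called in either sex comparison, in which 24.2% of all genes were called for WT and 3.56% for KO. One member, Sbsn, had an unadjusted p under 0.05 in each, and DESeq2 called 0. Likewise, 0 of 6 were called for a difference of responses between genotypes in females (11.2% of all genes called) or in males (0.0% called), with 0 and 1 members at an unadjusted p under 0.05, the latter again Sbsn, and 0 by DESeq2. In females the Sbsn response was 1.08 lower in cultures labelled KO (a difference of -1.08, SE 0.51, adjusted p = 0.185 by edgeR). That Sbsn and Ivl passed the threshold only in WT females therefore does not show that their response differed between groups.

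Sexes were then compared within treatment. In naive cultures 0 of the 6 genes differed between males and females in WT (0.1% of all genes called by edgeR) or in KO (0.188% called). At an unadjusted p under 0.05 there were 0 members in WT and 1 in KO, Sprr1a, and DESeq2 called 0 in both. Under HDM, WT males differed from WT females in 1 of the 6 genes, where 41.6% of all genes were called and 20.3% were called lower in males. This was Sbsn, at 2.46 and 2.38 CPM in males against 5.62 and 7.96 CPM in females. The replicates of each sex were close and the sexes well apart (log2 fold change male minus female of -1.49, SE 0.36, adjusted p = 0.00678 by edgeR), but Sbsn was not called without female WT HDM replicate 2, which left 0 of 6 genes called. Ivl was lower in males at 9.45 and 4.88 CPM against 15.7 and 12.7, but a log2 fold change of -0.99 (SE 0.51) missed the threshold (adjusted p = 0.143 by edgeR). For Sprr1a the difference was -0.15 (95% interval -0.69 to 0.39), for Sprr3 0.35 (-0.51 to 1.21), for Tgm1 0.36 (-0.77 to 1.49) and for Cdsn -0.08 (-0.98 to 0.82).

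The widest contrast of the cornified envelope genes lay between the sexes in HDM-treated cultures labelled KO. All 6 were lower in males and 4 of 6 were called, Sbsn, Tgm1, Ivl and Sprr1a, in a comparison in which 25.3% of all genes were called and 12.4% were called lower in males. The median log2 fold change of the 6 genes, male minus female, was -1.38, beside 0.00 over all genes tested. Sbsn gave 0.927 and 1.27 CPM in males and 5.85 and 4.87 CPM in females. Every male culture lay under every female one, by a log2 fold change of -2.28 (SE 0.39, adjusted p = 0.00164 by edgeR), a 4.85-fold lower level. Tgm1 gave 6.49 and 5.44 CPM in males and 26.9 and 20.3 CPM in females. The difference was again larger than the spread within each pair (-1.98, SE 0.54, adjusted p = 0.02025 by edgeR). Other male pairs were wider apart for Tgm1, at 16.5 and 7.81 CPM in naive WT and 27.5 and 8.87 in HDM WT. Naive males labelled KO gave 16.4 and 7.05 CPM. In each of these pairs replicate 1 was the higher, and both male HDM cultures labelled KO lay below replicate 2. Whether this close male pair reflects the source of its cultures was not tested. Ivl gave 3.42 and 2.65 CPM in males and 13.3 and 8.13 CPM in females. Its female pair was the more variable, and the sexes did not overlap (-1.81, SE 0.54, adjusted p = 0.0285 by edgeR). Sprr1a gave 105.5 and 91.5 CPM in males and 184 and 145 CPM in females. Its difference was the smallest of those called and close to the threshold (-0.74, SE 0.25, adjusted p = 0.0493 by edgeR).

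Sprr3 (-0.68, SE 0.40, adjusted p = 0.231 by edgeR) and Cdsn (-0.94, SE 0.42, adjusted p = 0.1285 by edgeR) were not called between the sexes in these cultures, although neither pair overlapped: Cdsn gave 2.03 and 2.89 CPM in males and 4.96 and 4.48 CPM in females. In a fit of the 4 libraries compared, all 6 genes were called, with Sprr3 at -0.68 and Cdsn at -0.93, and both were also called with no filter on low counts. Shares of all genes called in these fits are not given here, so the calls add no evidence for a sex difference. The number of called genes depended on single libraries. Without female KO HDM replicate 1, male KO HDM replicate 1 or male KO HDM replicate 2, only Sbsn of the 6 tested genes was called. Sprr1a lost its call also without female KO HDM replicate 2 or any 1 of the 4 naive female libraries, and with upper-quartile scaling, library-size scaling or the replicate block. Secretory markers differed in this comparison as well, at 35440 to 38830 CPM in males against 9282 to 9495 in females with 9 of 10 called higher in males. The 7 hillock-type markers, genes of a squamous-like airway cell state, 4 of which also stand in the wider lists described further on, summed to 6042 to 6239 CPM in males and 10560 to 11430 CPM in females, with 3 called lower in males. The basal markers summed to 8030 to 8176 CPM in males and 11910 to 14740 CPM in females, with 2 called higher and 3 lower. edgeR called 0 fibroblast markers. The part of these differences in those of Sbsn, Tgm1, Ivl and Sprr1a was not tested.

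**Figure D4:**
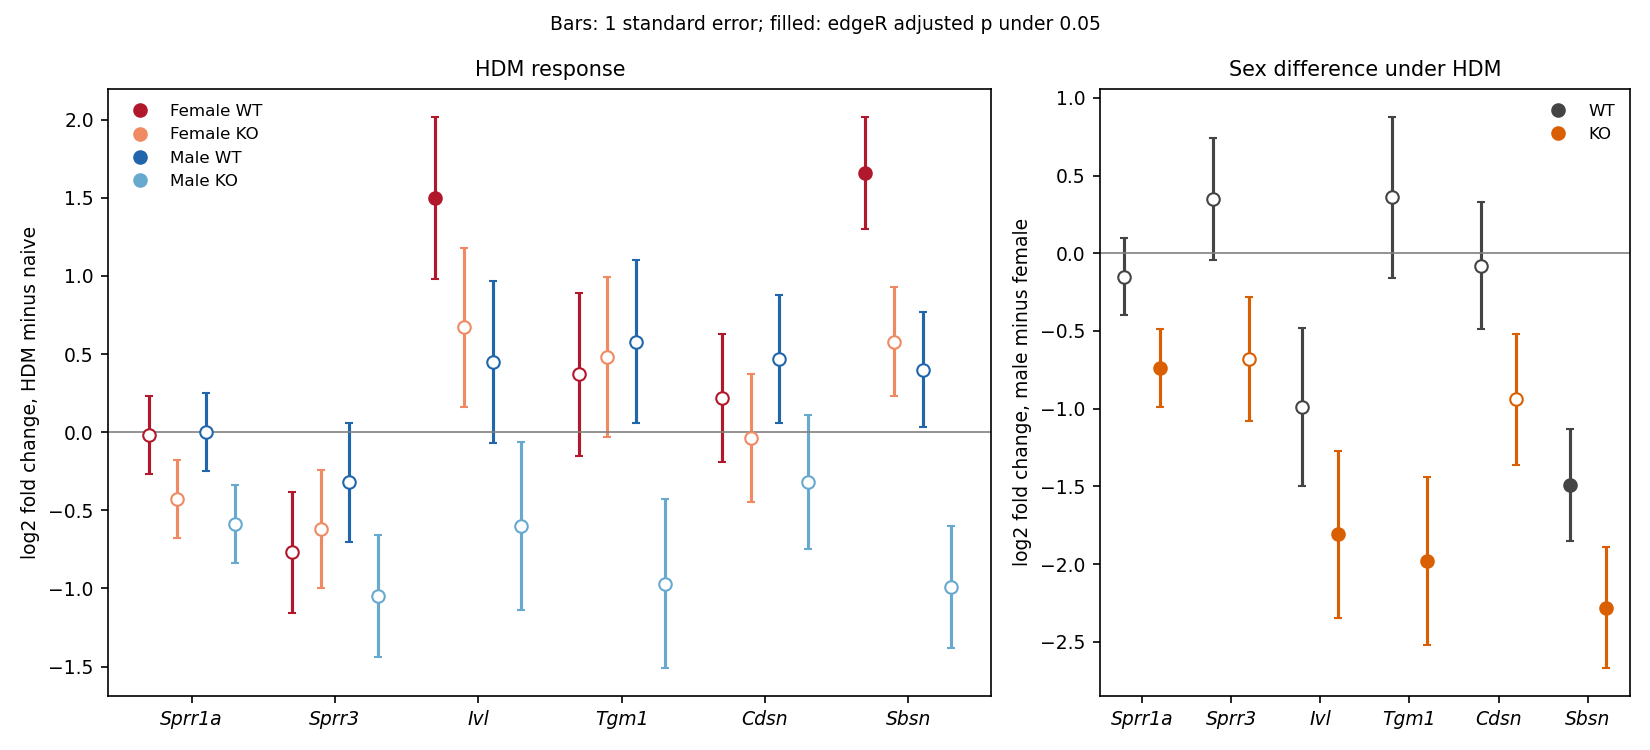
Log2 fold changes of the 6 tested genes with 1 standard error, on the left for HDM minus naive in the 4 combinations of sex and genotype and on the right for male minus female under HDM in WT and KO; filled points passed an adjusted p under 0.05. Filled points are Ivl and Sbsn in female WT on the left, and Sbsn in WT and Sprr1a, Ivl, Tgm1 and Sbsn in KO on the right.

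Genotypes were compared within sex and treatment. edgeR called 0 of the 6 genes in each of the 4 comparisons, in which it called 0.0% of all genes in naive females, naive males and HDM males and 29.2% in HDM females. DESeq2 called 1 of the 6, Sprr1a, in HDM males, among 437 genes in all, and 0 of the 6 in the others, with 1 gene in all in naive females and 1 in naive males. At an unadjusted p under 0.05 there were 203 genes in naive females, 867 in naive males and 2897 in HDM males. Of the members, 5 were at that level in HDM males and 0 in the others. In HDM males all 6 genes were lower in cultures labelled KO. Tgm1 stood at 6.49 and 5.44 CPM in these and at 27.5 and 8.87 CPM in WT (log2 fold change KO minus WT of -1.61, SE 0.54, adjusted p = 0.193 by edgeR). Without WT HDM replicate 1 the Tgm1 value was -0.57 and without WT HDM replicate 2 it was -2.21. Sprr1a stood at 105.5 and 91.5 CPM against 146 and 203 CPM in WT (-0.83, SE 0.25, adjusted p = 0.178 by edgeR). The remaining values were -1.24 for Ivl, -1.13 for Sbsn and -0.75 for Sprr3, and Cdsn was 1.99-fold lower. The groups did not overlap for any of the 6 genes. How many of all genes had groups without overlap was not counted, so this only describes the 6. The lowest WT library in this comparison was replicate 2 for Tgm1, Ivl, Cdsn, Sprr3 and Sbsn. In HDM females Tgm1 was the one furthest from 0 (0.73, 95% interval -0.40 to 1.87), with 26.9 and 20.3 CPM in cultures labelled KO against 15.5 and 12.8 CPM in WT, and it passed in a fit of the 4 libraries compared.

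Levels of the 6 genes were not tied to one another evenly over the 16 libraries. Described by Pearson's r of log2(CPM + 1), which shares library depth and group structure among all points, Ivl was closest to Sbsn (r = 0.875) and Tgm1 to Cdsn (r = 0.846), whereas Sprr3 and Sbsn hardly varied together (r = 0.069). Among tested genes outside the 10 whose mean log2 CPM reached 2, those most like Sbsn were Zfp365 (r = 0.969), Cpped1 and Palm. For Ivl they were Btbd19 (r = 0.967), Hsp90ab1 and Ces2e, and for Tgm1 they were Rangap1 (r = 0.970), Rrm2 and Eftud2. Cdsn was most like Nup93 (r = 0.907), Sprr3 most like Mns1 (r = 0.911) and Sprr1a most like Ykt6 (r = 0.855). The order of group means differed between genes. For Sbsn it ran from female WT HDM (6.79 ± 1.65 CPM, SD, n = 2) over female KO HDM (5.36 ± 0.694) and female KO naive (3.58 ± 1.47) to male KO HDM (1.10 ± 0.245), and the female WT HDM and female KO HDM pairs overlapped. The female KO HDM pair lay above the female KO naive pair, and this one above male WT HDM (2.42 ± 0.0553). The pair of male KO HDM lay below those of all other groups. For Tgm1 it ran from female KO HDM (23.6 ± 4.65) over male WT HDM (18.2 ± 13.2) to male KO HDM (5.96 ± 0.745).

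The other genes of the pathway, 119 in 5 lists of precursors, enzymes, adhesion and secreted products, regulators and keratins, of which 76 were tested, changed in both directions. In female WT cultures HDM moved 42 of the 76 past the threshold, 14 higher and 28 lower. Of all genes, 43.1% passed it and 20.6% were called higher. Of 20 tested genes in the precursor list 5 were higher and 8 lower. Cst6, a cystatin that restrains proteases in the upper epidermis, rose from 9.41 ± 2.62 to 117.5 ± 20.3 CPM (SD, n = 2; log2 fold change 3.63), and Ecm1, a secreted glycoprotein of skin, rose from 1703 ± 172 to 5075 ± 834 CPM (1.58). In the opposite direction the cornulin gene Crnn fell by 3.37 and the repetin gene Rptn by 3.54 on the log2 scale, both chosen after their values were seen. The widest log2 fold changes of this list went both ways. They were 6.96 for Lce1g, 6.06 for Lce1h, -6.19 for Sprr2e and -5.03 for Sprr2f, whose counts and calls are not given here. Rptn rested on 5 and 0 counts under HDM, and its change was -8.35 without HDM replicate 1 and -2.65 without HDM replicate 2; it was not called in the latter fit, nor without naive replicate 2. Sprr2a3 fell by 0.98, with counting that is uncertain because Sprr2a copies are nearly identical. The enzymes gave 4 higher and 4 lower of 17. Those higher included the proteases Klk8 (3.13) and Casp14 (3.59).

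More of the squamous keratins and regulators were called lower than higher in the same comparison. Of all genes, 43.1% were called in it and 20.6% were called higher. Among 10 keratins 1 was called higher and 5 lower, with Krt13 at 7.98 ± 1.31 CPM under HDM against 56.3 ± 3.25 naive (log2 fold change -2.81), Krt4 at 106 ± 59.5 against 748 ± 39.5 (-2.82) and Krt80 higher (1.90). Krt4 and Krt13 pair in non-cornifying squamous epithelia. Among 16 regulators 3 were higher and 8 lower, including Grhl1 (-2.01) and Zfp750 (-1.60), both transcription factors of epidermal differentiation. Of 13 adhesion and secreted products 1 was higher and 3 lower, among them Calml3, a calmodulin-like protein of epithelium (-4.49). The median over the 76 genes was -0.37, beside -0.02 over all genes and 0.30 over the 6 members.

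In female cultures labelled KO, HDM moved 6 of the 76 genes past the threshold, 2 higher and 4 lower, where 10.4% of all genes were called. All 6 stand in the precursor list, and they are 7.895% of the 76, under that share. Cst6 (1.66), Ecm1 (0.82) and Sprr2a3 (-0.86) were among them, and their directions were those seen in WT females. In male WT and KO cultures 0 of 76 were called by edgeR, with 3 and 11 at an unadjusted p under 0.05 and 0 and 0 by DESeq2. Between the sexes under HDM, males were higher in 27 and lower in 10 of the 76 genes in WT, and higher in 4 and lower in 35 in KO. Over all genes 41.6% were called in WT, 20.3% lower in males, and 25.3% in KO, 12.4% lower in males. Krt13 gave 67.1 ± 0.468 CPM in WT males against 7.98 ± 1.31 in WT females, and 23.0 ± 8.43 in KO males against 157 ± 72.4 in KO females. Its sex difference was called in both genotypes and had opposite signs. Sbsn, in contrast, was lower in males in both.

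**Figure D5:**
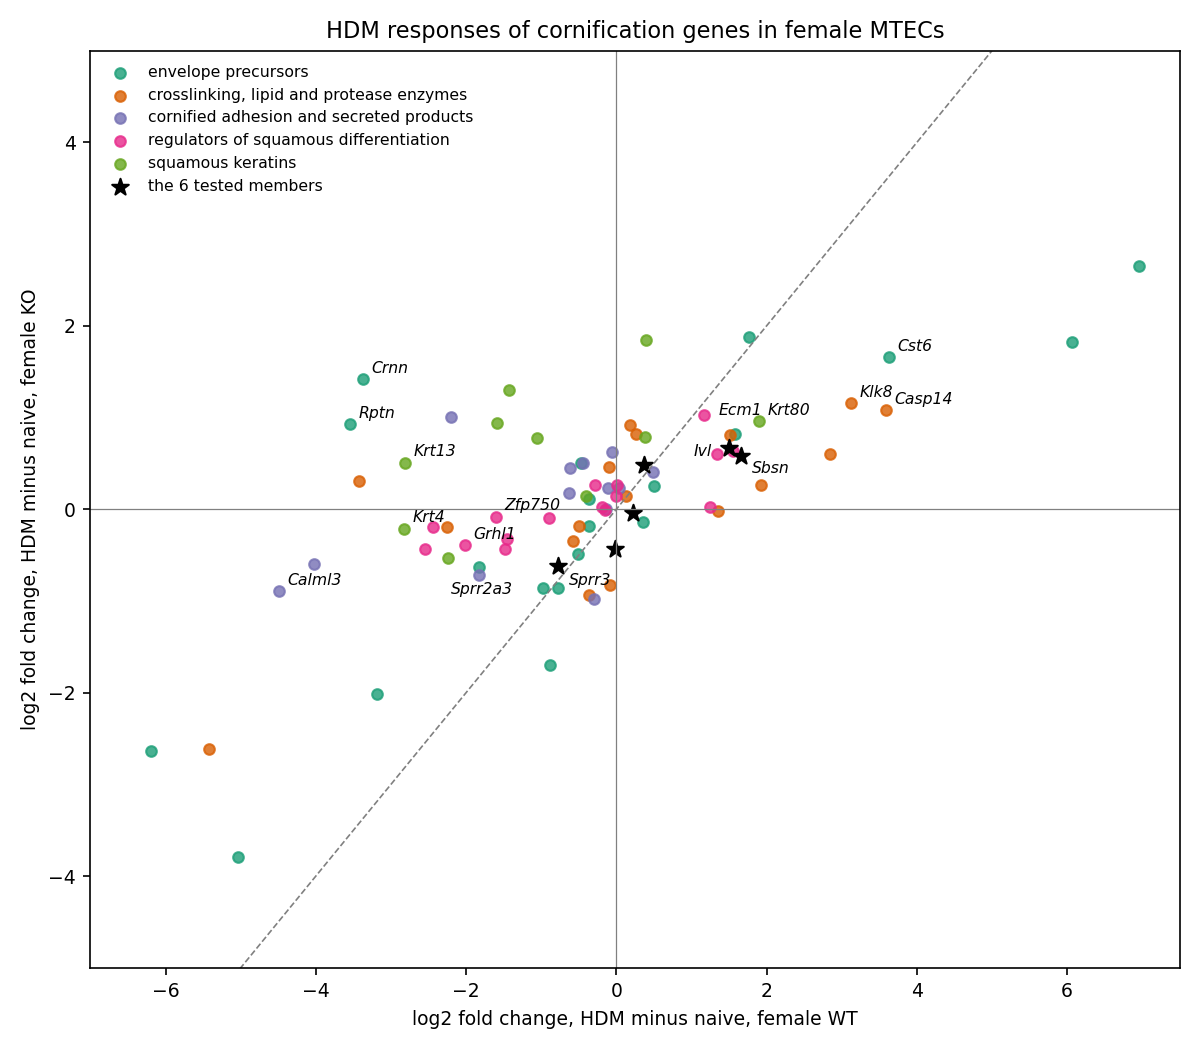
Log2 fold changes of the 76 tested genes of the wider lists (circles, coloured by list) and of the 6 tested members (stars) for HDM minus naive, in female WT on the horizontal and in female KO on the vertical axis; the dashed line marks equal values. Ivl and Sbsn lie right of 0 near each other, with Sbsn at 1.66. Crnn, Rptn and Krt13 are negative in WT and positive in KO, where edgeR called none of them. Each axis uses its own naive group.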

How the data were processed

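RNA from 16 MTEC cultures had been extracted with an RNeasy kit, enriched for mRNA, primed at random and amplified. The deposited table holds raw read counts per Ensembl gene made by the authors; the submitters' processing notes name Trimmomatic 0.36, STAR 2.5.2b, featureCounts of Subread 1.5.2, DESeq2 and GRCm38, while the annotation release and strand setting are not given in the sources used here. Symbols, positions and exon lengths came from GENCODE M21, which matched 49056 of 49315 gene IDs (unmatched IDs held 0.0106% of counts). No other column of sample values was set aside (0).

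Counts were filtered with filterByExpr, scaled with TMM and fitted over all 8 groups with edgeR 4.0.16 in R 4.3.3 (quasi-likelihood test, Benjamini-Hochberg adjustment over 15993 genes, threshold 0.05). The common biological coefficient of variation was 0.142. Standard errors were log2 fold changes over the root of the F statistic, and 95% intervals used the degrees of freedom of the same test. Comparisons were HDM minus naive, male minus female, KO minus WT, and differences of HDM responses. The step was tested on simulated data with planted changes. Alternatives were upper-quartile and library-size scaling, no filter, a floor of 10 counts per gene and library, a replicate block, only the compared libraries, each library left out, and DESeq2 1.42.0.

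All 10 members and 119 genes of wider lists were followed. Named genes were the members, Lman1, and up to 4 genes of each wider list with the smallest p in the HDM response of female WT or KO cultures. Crnn and Rptn were named outside this rule, after their values were seen. For likeness, the 3 genes of highest r per member were taken. Members and lists were chosen with earlier results of these data known. Promoter windows came from RefSeq (GRCm38.p6). Intervals and limits cover counting error only where they concern single counts.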

Additional observations from a re-analysis of the deposited data

Results flagged for a closer look

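In the direct edgeR comparison of HDM responses between female cultures labelled KO and female WT cultures, 19 of the 76 tested wider-list genes were called (25.0%, 17 higher and 2 lower in KO), where 11.2% of all genes were, and 0 of the 6 tested cornified envelope members were. Among the genes named in the text 9 of these stood out by that difference. They had been named for a small p in the female WT or KO response, which enters the same difference (Crnn and Rptn were singled out after their values were seen), so the values are a description and not independent evidence. As differences of log2 fold changes, KO minus WT, they were 3.32 for Krt13 (SE 0.56), 1.62 for Grhl1 (SE 0.31) and 1.52 for Zfp750 (SE 0.26), which were called in every fit that left out 1 library. The others lost the call in some of these fits. Crnn differed by 4.79 (SE 0.93), and was not called without female WT HDM replicate 2 or female KO naive replicate 2. Cst6 differed by -1.97 (SE 0.49), and was not called without female WT naive replicate 1, female WT HDM replicate 2, female KO naive replicate 2 or female KO HDM replicate 2. Rptn differed by 4.47 (SE 1.12), from 3.58 without female WT HDM replicate 2 to 9.28 without female WT HDM replicate 1, on 5 and 0 counts in the female WT HDM libraries. Krt4 at 2.61 (SE 0.62), Calml3 at 3.61 (SE 1.00) and Klk8 at -1.98 (SE 0.54) were, like Rptn, not called in most fits that left out 1 female library. The groups compared also differed in Lman1, whose own response differed by 2.67 (SE 0.64), and in the basal and secretory marker sums given above; the part of these in the 9 values was not tested.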

How the results depend on the processing

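With 2 libraries per group, calls near the threshold moved. Fold changes under the alternatives kept direction and side of the threshold in 506 cases, passed it in 39, lost it in 4 and changed sign in 3 (Sprr1a, HDM in male WT, 0.00 with no filter, with the replicate block and with DESeq2). With no filter on low counts the members called were 3 for HDM in female WT, 4 for HDM in female KO, 4 for HDM in male KO, 2 for sex in WT HDM, 2 for sex in KO naive, 7 for sex in KO HDM, 1 and 1 for genotype in naive and HDM females, 6 for genotype in HDM males, and 2, 3 and 4 for the differences of responses between sexes in WT, in KO and between genotypes in males; wider-list genes called were 31, 4 and 22 for HDM in female KO, male WT and male KO and 36 for the difference between genotypes in females. Fitting only the compared libraries called 6 members for sex in KO HDM, 2 for HDM in female WT (Sbsn and Sprr3), 2 members and 27 wider-list genes for HDM in female KO, 1 member for genotype in HDM females and 23 wider-list genes for sex in WT HDM. DESeq2 called 1 member for genotype in HDM males and 11 wider-list genes for HDM in female KO. Requiring at least 10 counts in every library left 22 wider-list genes for sex in WT HDM. The cause of these changes was not tested. Shares of all genes called in these other fits, and in those below, are not given here. The counts therefore describe the fits and are no result about the members or the lists. With library-size scaling, 2928 of 4747 genes called for genotype in HDM females were higher, against 2385 of 4669, and 1217 of 1817 against 985 of 1798 for the difference of responses between genotypes in females.

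The labels do not say whether cultures with the same number are paired. Their deviations correlated from -0.29 to 0.61 between compared groups, highest between naive and HDM male WT cultures, with 2 pairs in each comparison, so the numbers were not treated as pairs. With the replicate block, 2 members were called for HDM in female WT, 1 for sex in WT HDM and 3 for sex in KO HDM, where Sprr1a was lost (-0.74, adjusted p = 0.0542 by edgeR, against 0.0563 and 0.0535 with upper-quartile and library-size scaling).

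Leaving out 1 library at a time gave 1 to 2 members for HDM in female WT, 0 to 1 for sex in WT HDM and 1 to 5 for sex in KO HDM, the highest including Cnfn. Wider-list genes called ranged from 28 to 46 for HDM in female WT, 0 to 12 in female KO and 0 to 1 in male KO, from 22 to 40 and 20 to 42 for sex in WT and KO HDM, and from 7 to 26 for the difference between genotypes in females. Log2 fold changes that changed sign for HDM ranged, in male WT, from -0.20 to 0.93 for Cdsn, -0.10 to 0.94 for Ivl, -0.27 to 0.33 for Sprr1a, -0.82 to 0.09 for Sprr3 and -0.46 to 1.22 for Tgm1, in female WT from -0.16 to 0.53 for Cdsn and -0.35 to 0.24 for Sprr1a, in male KO from -0.72 to 0.23 for Cdsn, and in female KO from -0.12 to 0.03 for Cdsn, -0.07 to 0.92 for Krt13 and -0.18 to 0.00 for Zfp750. For sex in WT HDM they ranged from -0.75 to 0.38 for Cdsn, -0.41 to 0.18 for Sprr1a, -0.15 to 0.72 for Sprr3 and -0.67 to 0.96 for Tgm1, and the difference between genotypes in females from -0.06 to 0.32 for Sprr2a3.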
